A study of Mus musculus with 12 samples.

Results

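Genes that mark macrophages of the liver and the lung were examined in newborn mice that carry or lack *Man1a2*, the gene of a Golgi alpha-mannosidase that trims N-linked glycans. The members are 10 genes given by name, and all 10 were found by symbol among the 24421 genes of the count tables. They are 5 genes of macrophages in general (*Csf1r*, *Cd68*, *C1qa*, *Cd163* and *Mrc1*) and 5 genes of resident macrophages (*Clec4f*, *Timd4*, *Vsig4*, *Cd5l* and *Marco*). Polyadenylated RNA was sequenced from whole liver and whole lung in 12 libraries, 3 for each of WT liver, null liver, WT lung and null lung. WT pups were Man1a2+/+ and null pups were Man1a2-/- for the allele Man1a2tm1.1Ahe, which lacks exon 2 in every cell. Both came from crosses of Man1a2+/- parents and were killed within the first hour after birth, with no treatment, so the macrophages were those present at birth and the deletion was not restricted to them. The design text counts 3 WT and 3 null mice, with both organs taken from each.

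Macrophages settle in most organs before birth and depend on the receptor CSF1R, which binds the growth factors CSF1 and IL-34. Kupffer cells are the macrophages of the liver sinusoids. They take up particles, bacteria and old red cells from portal blood, and in mice they are known for *Clec4f*, *Timd4*, *Vsig4* and *Cd5l*. Alveolar macrophages of the lung mature in the days after birth under the growth factor CSF2, so the newborn lung holds mainly fetal macrophages and monocytes. Several of these receptors are lectins or scavenger receptors that bind sugars or modified proteins.

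The promoters of *Clec4f*, *Timd4*, *Vsig4* and *Cd5l* are shown because these 4 resident genes had the lowest lung levels relative to liver in the comparisons that follow. Each run spans 250 bases before to 50 bases after the start of the gene in RefSeq on GRCm38.p6, written 5′ to 3′ on the strand of the gene. Capitals mark 3 motifs, searched on both strands, none of which overlapped another. The letters were GAGGAA (core of the site of PU.1, the master factor of macrophages), TGCTGA (part of the site of MAF proteins) and AGGTCA (core of the site of many nuclear receptors).
Clec4f, chr6:83656067-83656366, minus strand: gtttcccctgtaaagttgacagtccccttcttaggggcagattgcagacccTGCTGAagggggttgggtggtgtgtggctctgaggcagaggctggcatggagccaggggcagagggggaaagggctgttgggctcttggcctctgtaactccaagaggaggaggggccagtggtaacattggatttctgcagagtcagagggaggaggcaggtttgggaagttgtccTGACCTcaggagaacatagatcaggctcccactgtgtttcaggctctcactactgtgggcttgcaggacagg
Timd4, chr11:46810549-46810848, plus strand: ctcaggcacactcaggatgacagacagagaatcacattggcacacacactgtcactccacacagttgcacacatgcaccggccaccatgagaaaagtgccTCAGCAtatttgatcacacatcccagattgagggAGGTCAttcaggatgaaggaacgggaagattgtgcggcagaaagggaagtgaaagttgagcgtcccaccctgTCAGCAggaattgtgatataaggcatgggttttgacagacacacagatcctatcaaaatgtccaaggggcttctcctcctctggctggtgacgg
Vsig4, chrX:96293389-96293688, minus strand: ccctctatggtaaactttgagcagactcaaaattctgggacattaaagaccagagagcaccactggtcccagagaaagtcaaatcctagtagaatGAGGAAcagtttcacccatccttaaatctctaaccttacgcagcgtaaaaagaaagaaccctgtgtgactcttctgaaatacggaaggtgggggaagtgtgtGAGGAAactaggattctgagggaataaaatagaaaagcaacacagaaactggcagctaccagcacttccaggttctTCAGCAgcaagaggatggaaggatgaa
Cd5l, chr3:87357631-87357930, plus strand: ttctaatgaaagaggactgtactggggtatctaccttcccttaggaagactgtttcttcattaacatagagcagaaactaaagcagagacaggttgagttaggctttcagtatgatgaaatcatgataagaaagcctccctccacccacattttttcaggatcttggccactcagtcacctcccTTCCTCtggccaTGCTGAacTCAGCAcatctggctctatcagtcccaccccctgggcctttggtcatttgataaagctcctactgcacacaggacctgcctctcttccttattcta

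Promoters were matched for 8 of the 10 members. GAGGAA stood in 5 of the 8, those of *Cd68*, *Mrc1*, *Vsig4*, *Cd5l* and *Marco*, and in 28.3% of all 32851 promoters of this length. TGCTGA stood in the 4 promoters printed above and in 19.5% of all promoters. AGGTCA stood in those of *Clec4f* and *Timd4* and in 16.3% of all promoters. The *Clec4f* promoter held the MAF motif at position -199 relative to the start. The *Cd5l* promoter held the PU.1 motif at -66 and the MAF motif at -54 and -46. None of the 3 motifs was found in the *Cd163* promoter. A match is a string of letters and not a measured binding site.

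The libraries held 26759463 to 42914295 reads assigned to genes, which puts a count of 3 reads at 0.0699 to 0.112 CPM (counts for each 1e6 reads of the library). The CPM levels given below are also divided by a scaling factor of each library (TMM), by which this floor is not divided. The factor was 0.672 to 0.828 in the liver libraries and 1.19 to 1.39 in the lung libraries. Hepatocyte and lung epithelial markers matched the labelled tissue except in the library labelled null lung 1. There the lung epithelial markers summed to 514 CPM, against 19376 to 26473 CPM in the other 5 lung libraries, while muscle markers summed to 15961 CPM against 227 to 661 CPM. The library labelled null liver 1 also held muscle reads, at 5199 CPM against 5.44 to 7.97 CPM in the other 5 liver libraries. The members and the counts of each gene list are therefore also given without these libraries where the genotypes are compared. The targeted gene *Man1a2* stood at 87.0, 54.2 and 68.6 CPM in WT liver and 53.7, 48.2 and 50.2 CPM in null liver, and at 105, 75.5 and 107 CPM in WT lung and 42.5, 49.8 and 50.2 CPM in null lung. The genotypes did not overlap in either tissue, but the changes missed the threshold (log2 fold changes of -0.47 and -1.01, edgeR adjusted p = 0.0809 and 0.0614). Without null liver 1 and without null lung 1 they were -0.50 (adjusted p = 0.105) and -0.95 (adjusted p = 0.0043). A count over the whole gene does not show the deleted exon.

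In WT newborn liver all 10 macrophage genes were detected well above the floor. Levels of different genes are compared here per kilobase of exon, as mean ± SD over 3 libraries. *C1qa*, a chain of the complement starter C1q, was highest at 117 ± 18.4 CPM per kb. *Cd5l*, which encodes a secreted macrophage protein, followed at 82.1 ± 13.7, then the scavenger receptor gene *Marco* at 60.1 ± 10.6 and the Kupffer cell lectin gene *Clec4f* at 49.4 ± 3.42 CPM per kb. *Csf1r* stood at 28.4 ± 2.04, the mannose receptor gene *Mrc1* at 20.8 ± 2.13, the complement receptor gene *Vsig4* at 19.6 ± 5.42 and the lysosomal glycoprotein gene *Cd68* at 16.0 ± 0.282 CPM per kb. *Timd4*, a receptor gene for dying cells, at 6.66 ± 0.975, and the haemoglobin scavenger gene *Cd163*, at 2.31 ± 0.613 CPM per kb, were lowest. The libraries of neighbours in this order overlapped for *C1qa* and *Cd5l*, *Cd5l* and *Marco*, *Marco* and *Clec4f*, *Mrc1* and *Vsig4*, and *Vsig4* and *Cd68*, and the other neighbours stood apart.

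The order was different in WT lung. *C1qa* led at 17.7 ± 4.61 CPM per kb, then *Csf1r* at 9.22 ± 1.11 and *Cd68* at 8.32 ± 0.693, whose libraries overlapped. *Mrc1* stood at 4.56 ± 0.223, *Marco* at 2.93 ± 0.329, *Cd163* at 1.27 ± 0.370 and *Cd5l* at 0.740 ± 0.316 CPM per kb, and of these only *Cd163* and *Cd5l* overlapped. *Timd4* at 0.0777 ± 0.0397, *Clec4f* at 0.0458 ± 0.0618 and *Vsig4* at 0.0211 ± 0.0248 CPM per kb overlapped with each other at the bottom of the order. General macrophage RNA was thus measured in both organs, while 3 of the 5 resident genes were near the detection limit in lung.

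**Figure D1:**
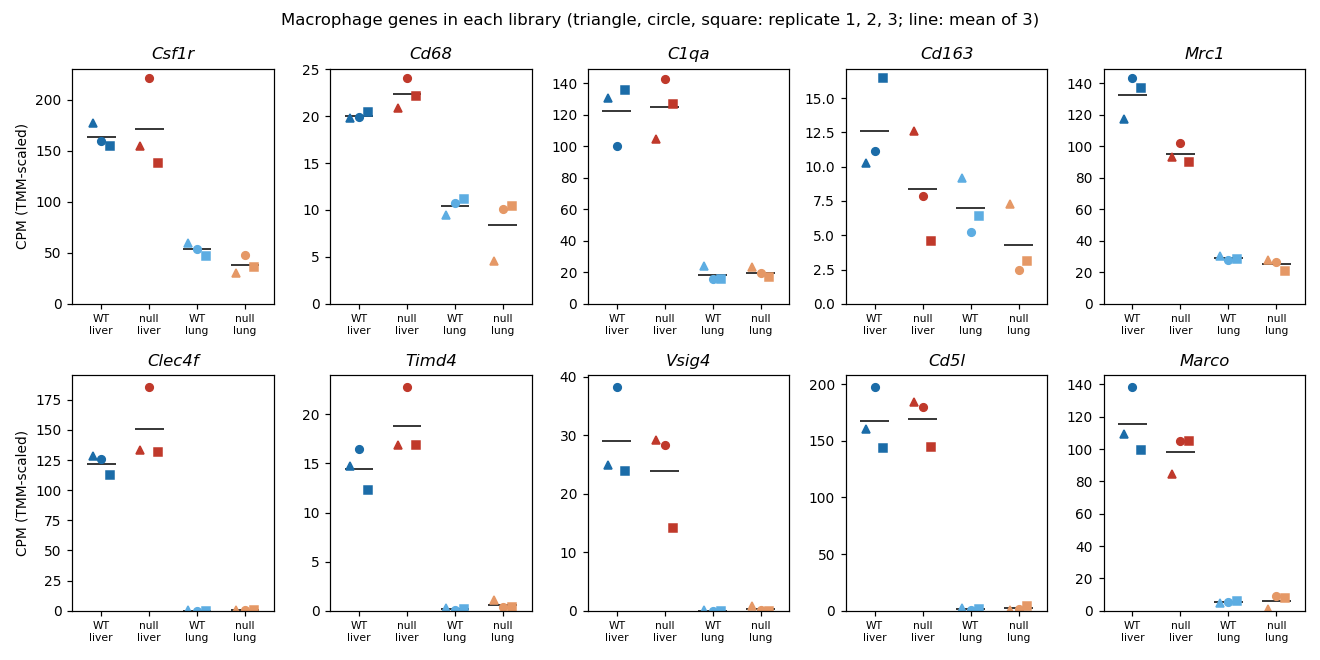
CPM of each macrophage gene (vertical axis, from 0, TMM-scaled over the 12 libraries) in the 4 groups (horizontal axis), with a point for each library and a line at the mean of 3. The liver libraries of *Clec4f*, for example, sit between 112 and 186 CPM and its lung libraries between 0 and 0.586 CPM.

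All 10 genes were lower in WT lung than in WT liver, and no gene overlapped between the tissues (8 of 10 did not overlap with CPM of total counts). The general macrophage genes differed least. *Cd163* (chromosome 6, 124304656 to 124330527 of GRCm38) was at 10.3, 11.1 and 16.5 CPM in WT liver and 9.20, 5.27 and 6.42 CPM in WT lung, a log2 fold change of -0.87 ± 0.24 (SE, edgeR adjusted p = 0.00926). *Cd68* (chromosome 11, 69664213 to 69666153) was at 19.8, 19.9 and 20.5 CPM in liver and 9.47, 10.8 and 11.1 CPM in lung, a log2 fold change of -0.95 ± 0.11 (edgeR adjusted p = 3.07e-05). These were the smallest tissue differences among the members.

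*Csf1r* (chromosome 18, 61100598 to 61132149) was at 177, 160 and 155 CPM in WT liver and 59.3, 53.8 and 46.6 CPM in WT lung, 3.10-fold lower (log2 fold change -1.63 ± 0.12, edgeR adjusted p = 1.08e-06). Its span overlaps *Hmgxb3* on the other strand, and the strand setting of the counting is not given in the sources used here, so reads of the overlap are uncertain. *Mrc1* (chromosome 2, 14229392 to 14332057) was at 117, 143 and 137 CPM in liver and 30.6, 27.9 and 28.7 CPM in lung, 4.61-fold lower. *C1qa* (chromosome 4, 136895917 to 136898803) was at 130, 100 and 136 CPM in liver and 24.0, 15.7 and 15.7 CPM in lung, 6.67-fold lower. With TMM-scaled CPM every liver library was thus above every lung library for each of the 5 general genes. The TMM factors that divide the CPM were 0.751 to 0.828 in WT liver and 1.35 to 1.39 in WT lung. With CPM of total counts *Cd163* and *Cd68* overlapped between the tissues. In whole organs, fewer macrophages and less RNA per macrophage cannot be told apart.

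The resident genes differed by far more. *Marco* (chromosome 1, 120474538 to 120505024), which also marks some lung macrophages, was at 109, 139 and 99.3 CPM in WT liver and 5.02, 5.63 and 6.29 CPM in WT lung, a log2 fold change of -4.37 ± 0.15 (edgeR adjusted p = 1.39e-08). *Timd4* (chromosome 11, 46810800 to 46844332) was at 14.7, 16.5 and 12.2 CPM in liver and 0.251, 0.0790 and 0.177 CPM in lung, a log2 fold change of -6.33 ± 0.28. *Cd5l* (chromosome 3, 87357881 to 87371073) was at 160, 198 and 143 CPM in liver and 2.22, 0.974 and 1.32 CPM in lung, a log2 fold change of -6.76 ± 0.27. The lung values of *Timd4* rest on 14, 3 and 8 reads, and those of *Cd5l* on 124, 37 and 60 reads.

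*Clec4f* (chromosome 6, 83644542 to 83656187) was at 128, 126 and 112 CPM in WT liver, from 3043 to 3639 reads, and held 16, 2 and 0 reads in the WT lung libraries. *Vsig4* (chromosome X, 96247203 to 96293438) was at 25.0, 38.3 and 23.9 CPM in WT liver and held 4, 0 and 1 reads in WT lung. A count of 0 allows up to 0.0911 CPM of the total for *Clec4f* in WT lung 3 and up to 0.109 CPM for *Vsig4* in WT lung 2, counting error only. The fitted log2 fold changes of -9.87 ± 0.38 and -9.54 ± 0.40 rest on these few reads and are not bounds.

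By edgeR, 10 of 10 members were called lower in WT lung, where 37.2% of all genes tested were called lower, and 10 of 10 did not overlap, where 81.3% of all genes did not overlap. The members' median log2 fold change was -3.55, against 0.04 over all genes. Each of these calls remained when any 1 of the 6 libraries was left out.

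A small number of liver reads is also visible in the lung libraries. The 8 hepatocyte markers, summed, were at 0.255%, 0.0151% and 0.0236% of the mean WT liver level in WT lung 1, 2 and 3. *Clec4f* was at 0.235%, 0.0432% and 0% of its WT liver mean in the same libraries. In null lung 1, 2 and 3 the hepatocyte markers were at 0.0334%, 0.235% and 0.0790% of the null liver mean, and *Clec4f* at 0.264%, 0.390% and 0.123%. The *Clec4f* share was thus above that of the hepatocyte markers in WT lung 2 and in every null lung library, and below it in WT lung 1 and 3. *Marco* was at 4.34% to 5.43% and *Csf1r* at 28.4% to 36.2% of their liver means in WT lung. In WT lung 1, 2 and 3 *Timd4* was at 1.73%, 0.546% and 1.22% of its liver mean, and *Vsig4* at 0.247%, 0% and 0.0759%. In null lung 1, 2 and 3 *Timd4* was at 5.57%, 2.14% and 1.76%, and *Vsig4* at 3.68%, 0.423% and 0.0772%. The *Timd4* share was thus above that of the hepatocyte markers in every lung library. The part of liver reads in the lung levels of *Clec4f*, *Vsig4* and *Timd4* was not tested.

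**Figure D2:**
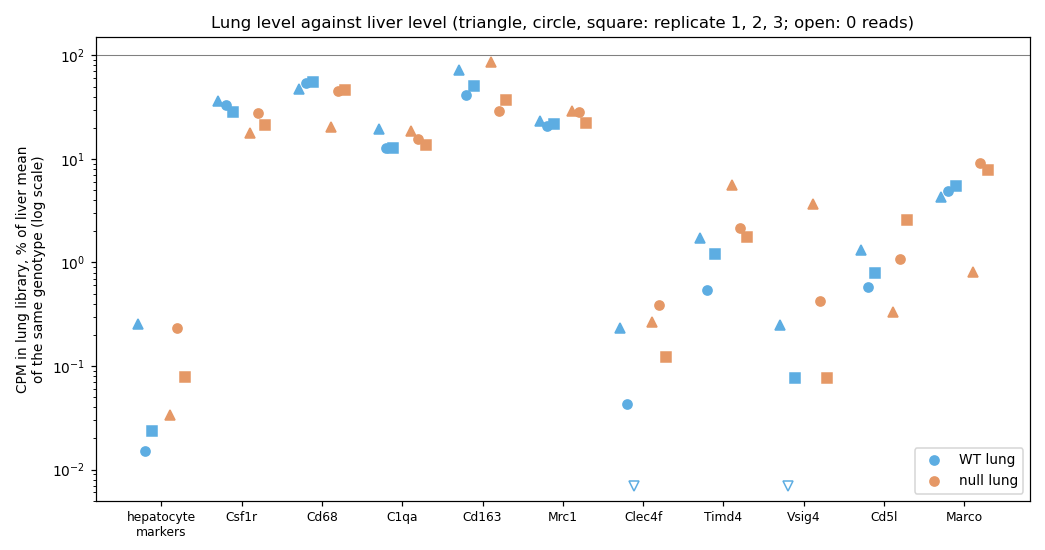
CPM in each lung library as a percentage of the mean of the 3 liver libraries of the same genotype (vertical axis, log scale) for hepatocyte markers and each macrophage gene (horizontal axis), with open symbols for 0 reads. *Csf1r*, *Cd68*, *C1qa*, *Cd163* and *Mrc1* sit between 12.8% and 87.4%. *Clec4f* sits at or below 0.390%, and the hepatocyte markers at 0.0151% to 0.255%.

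Set against *Csf1r* in the same library, a ratio that does not depend on how libraries are scaled, the tissue difference was uneven among the genes. For every 100 *Csf1r* reads, WT liver held 72.3 to 78.7 *Clec4f* reads and WT lung 0 to 0.483. *C1qa* reads numbered 62.9 to 87.8 in WT liver and 29.1 to 40.4 in WT lung. *Cd68* went the other way, with 11.2 to 13.2 reads in WT liver and 16.0 to 23.9 in WT lung. In all, 8 of the 9 ratios did not overlap between the tissues, where 91.5% of all genes did not, and the ratio of *Cd163* overlapped. With 3 against 3 libraries the smallest two-sided exact permutation p is 0.1, which all 8 reached (adjusted over the 9 ratios, 0.1125). With the mean log2 level of *Csf1r*, *Adgre1*, *Fcgr1* and *Mertk* as the denominator, *Cd163* did not overlap either.

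Null mice showed the same order of tissues. By edgeR, 9 of the 10 members were called lower in null lung than in null liver, where 21.6% of all genes were called lower, with log2 fold changes from -1.41 for *Cd68* to -8.57 for *Clec4f*. *Cd163* was at 12.6, 7.83 and 4.58 CPM in null liver and 7.30, 2.45 and 3.12 CPM in null lung, which overlapped (log2 fold change -0.95, edgeR adjusted p = 0.202). Without null liver 1 and null lung 1 all 10 were called lower (background 30.3%), with *Cd163* at -1.21 (edgeR adjusted p = 0.0188). The *Cd68* call was lost without null liver 2 or null liver 3, with an adjusted p of up to 0.0634.

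The related lists were measured in the same tissues, where 39.8% of all genes were called higher and 37.2% lower in WT lung than in WT liver. Of 9 genes of C1q and the complement receptors, 8 were lower and none higher in WT lung than in WT liver. This list also holds *Cfp*, *C1ra* and *C1s1*, which encode other complement proteins, and each of them was among the genes called lower. Of 18 core macrophage genes 10 were lower and 3 higher, and of 10 further genes of the Kupffer cell programme 8 were lower and 2 higher. Of 14 genes of the alveolar macrophage programme 8 were higher and 4 lower in lung. The lower genes were *Fabp4*, *Fabp5* (247 CPM in WT lung against 1291 in WT liver), *Chil3* (21.8 against 123 CPM) and *Ear1*. The higher genes were *Ear2*, *Itgax*, *Krt79*, *Plet1*, *Atp6v0d2*, *Bhlhe41*, *Car4* and the broadly expressed *Cd9*. The part of cells other than macrophages in these values was not tested. Of 12 scavenger and lectin receptor genes tested 5 were higher and 7 lower. The scavenger and lectin list also holds the enzyme gene *Hmox1*, which was among the lower genes. Of 13 genes of the CSF1 receptor axis 3 were higher and 7 lower.

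Among the ligands, which were chosen after their values were seen, *Csf1* was slightly lower in WT lung than in WT liver (18.7 ± 3.69 against 27.7 ± 1.81 CPM, log2 fold change -0.57, edgeR adjusted p = 0.00439). *Il34*, the other ligand of CSF1R, was higher in lung, at 13.6, 13.9 and 11.6 CPM against 1.44, 0.619 and 0.582 CPM in liver (log2 fold change 3.86, edgeR adjusted p = 1.93e-06). *Csf2*, the growth factor of alveolar macrophages, held 0 reads in all 6 liver libraries and 144, 90 and 106 reads in WT lung. The receptor gene was thus higher in liver, while *Il34* and *Csf2* were higher in lung.

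Null and WT liver were compared to ask how macrophage genes stand in the organ without *Man1a2*. Most members did not differ detectably, and the one call was *Mrc1*, which was lower in null liver. *Mrc1* was at 117, 143 and 137 CPM in WT liver and 93.3, 102 and 90.0 CPM in null liver, 1.40-fold lower (log2 fold change -0.48 ± 0.11, edgeR adjusted p = 0.0184), and every null library was below every WT library. The call held with DESeq2 (adjusted p = 0.00094) and was lost without WT liver 2 (-0.44, edgeR adjusted p = 0.0556) or WT liver 3 (-0.45, edgeR adjusted p = 0.0754). Liver sinusoidal endothelium also uses *Mrc1*. The 7 markers of that endothelium summed to 437 to 487 CPM in WT and 396 to 501 CPM in null liver, with 2 of 7 lower, and their part in the *Mrc1* result was not tested.

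The other general genes did not pass. *Csf1r* was at 155, 221 and 138 CPM in null liver, on both sides of the WT values (log2 fold change 0.06 ± 0.18, edgeR adjusted p = 0.822). *C1qa* was at 105, 143 and 127 CPM in null liver (0.03 ± 0.17, adjusted p = 0.917). *Cd68* was at 20.9, 24.1 and 22.2 CPM in null liver, each above the WT libraries, but the change was small (0.15 ± 0.11, adjusted p = 0.317). *Cd163* fell short as well with all 6 libraries (-0.60 ± 0.35, adjusted p = 0.236), since null liver 1, at 12.6 CPM, stood with the WT libraries. Without null liver 1, the library with muscle reads, *Cd163* was called lower (-1.01 ± 0.29, edgeR adjusted p = 0.0403) and *Mrc1* kept its call (-0.46, adjusted p = 0.0375).

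None of the 5 resident genes passed in liver by edgeR, with 0 at an unadjusted p under 0.05. *Clec4f* was at 133, 186 and 132 CPM in null liver against 128, 126 and 112 CPM in WT liver (log2 fold change 0.30 ± 0.16, adjusted p = 0.190). *Timd4* was at 16.9, 22.8 and 16.9 CPM in null against 14.7, 16.5 and 12.2 CPM in WT liver (0.38 ± 0.17, adjusted p = 0.137). For both genes every null library was above every WT library. *Cd5l* at 184, 180 and 144 CPM (0.02 ± 0.15, adjusted p = 0.940), *Vsig4* at 29.2, 28.4 and 14.1 CPM (-0.28 ± 0.29, adjusted p = 0.495) and *Marco* at 84.5, 105 and 105 CPM (-0.24 ± 0.15, adjusted p = 0.280) in null liver all overlapped WT.

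In sum over the members, 1 of 10 was called in null liver, where 26.9% of all genes were called in either direction, and 2 of 10 without null liver 1, where 23.8% were. Levels of 4 members did not overlap between the genotypes, where 46.6% of all genes did not. The members' median log2 fold change was 0.02, equal to that over all genes. Upper-quartile scaling moved the median of all liver genes by -0.11 and the split of calls from 1931 higher and 1925 lower to 1434 higher and 2666 lower; under it *Csf1r*, *C1qa* and *Cd5l* changed sign, and *Mrc1* stayed lower.

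For every 100 *Csf1r* reads, *Mrc1* reads numbered 66.3 to 89.9 in WT liver and 46.1 to 65.1 in null liver. *Clec4f* reads numbered 72.3 to 78.7 in WT and 84.1 to 95.6 in null liver, and *Timd4* reads 7.92 to 10.32 in WT and 10.33 to 12.2 in null liver. These 3 of the 9 ratios did not overlap between the genotypes in liver, where 26.9% of all genes did not. Each had a two-sided exact permutation p of 0.1, the smallest possible, and 0.3 after adjustment over the 9 ratios. The result depended on the denominator. With the mean log2 level of *Csf1r*, *Adgre1*, *Fcgr1* and *Mertk* instead, *Mrc1* and *Cd68* did not overlap between the genotypes. *Clec4f* and *Timd4* then overlapped (two-sided exact permutation p = 0.2 for each).

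**Figure D3:**
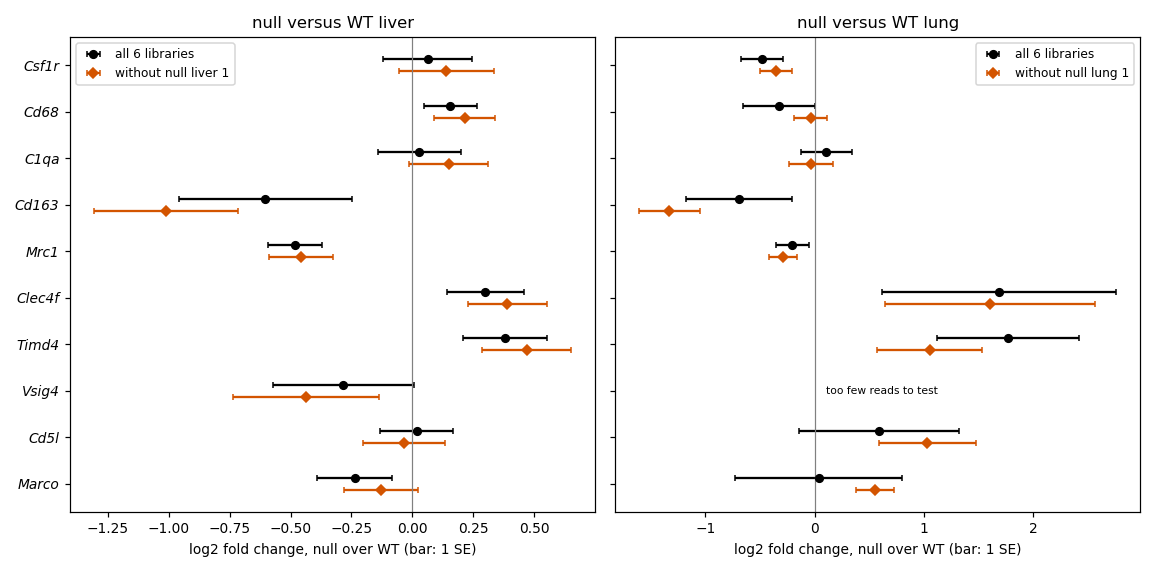
Fitted log2 fold change of null over WT (horizontal axis, bars 1 SE) for each macrophage gene in liver (left) and lung (right), with all 6 libraries (circles) and without the library with muscle reads (diamonds). In liver *Mrc1* lies at -0.48 and -0.46, and *Cd163* at -0.60 and -1.01, while in lung *Cd163* lies at -0.69 and -1.33.

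Other genes of the Kupffer cell programme were measured in the same fit. Of the 10 listed, 3 were called lower and 0 higher, with a list median of -0.27 against 0.02 over all genes. Over all genes 13.4% were called lower and 13.5% higher in null liver, and 26.9% in either direction, so the share of called genes in the list is near that of all genes. *Spic*, a transcription factor gene of macrophages that clear red cells, was at 34.5, 21.5 and 33.4 CPM in WT liver and 7.24, 5.0 and 10.01 CPM in null liver (log2 fold change -2.02 ± 0.29, edgeR adjusted p = 0.0046). *Nr1h3*, which encodes the liver X receptor alpha, was at 35.2, 51.2 and 33.4 CPM in WT and 18.1, 23.3 and 13.7 CPM in null liver (-1.12 ± 0.23, adjusted p = 0.012). *Slc40a1*, which encodes the iron exporter ferroportin, was at 394, 478 and 448 CPM in WT and 214, 260 and 162 CPM in null liver (-1.06 ± 0.18, adjusted p = 0.00687). No null library of these 3 genes reached a WT library, and the 3 calls held without any 1 of the 6 libraries. In a fit of all 12 libraries *Spic* and *Slc40a1* stayed called and *Nr1h3* did not (edgeR adjusted p = 0.212). That fit takes the spread of each gene from both tissues, null lung 1 included, and treats both organs of a mouse as independent. Its common dispersion (the spread over all genes) was 0.133, against 0.0542 in the liver fit. *Nr1h3* and *Slc40a1* are also expressed by hepatocytes and other liver cells, whose part in these values was not tested; the hepatocyte markers summed to 190204 to 256095 CPM in WT and 207141 to 293901 CPM in null liver, with 0 of 8 called.

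Of 12 scavenger and lectin receptor genes tested in liver, 5 were lower and 1 higher in null mice, with a list median of -0.25, beside 13.4% lower and 13.5% higher over all genes. *Hmox1*, the haem oxygenase gene, is in this list and among its lower genes although it encodes an enzyme and not a receptor. It was at 468, 374 and 579 CPM in WT and 139, 145 and 226 CPM in null liver (log2 fold change -1.48 ± 0.24, edgeR adjusted p = 0.00661). *Msr1*, a class A scavenger receptor gene like *Marco*, was at 60.0, 89.6 and 67.2 CPM in WT and 29.9, 39.4 and 45.6 CPM in null liver (-0.91 ± 0.20, adjusted p = 0.0149). Both calls held without any 1 library. *Cd36*, a fatty acid and lipoprotein receptor gene, was lower (-0.51, adjusted p = 0.0396), a call that held only without null liver 1 among the 6 libraries left out (adjusted p up to 0.12 otherwise). *Scarb1*, the receptor gene for high-density lipoprotein, which hepatocytes also express, was higher (0.60, adjusted p = 0.00991; 0.0536 without WT liver 3). Of these 4 genes, *Hmox1* and *Msr1* stayed called in the fit of all 12 libraries, and *Cd36* (adjusted p = 0.437) and *Scarb1* (adjusted p = 0.167) did not.

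**Figure D4:**
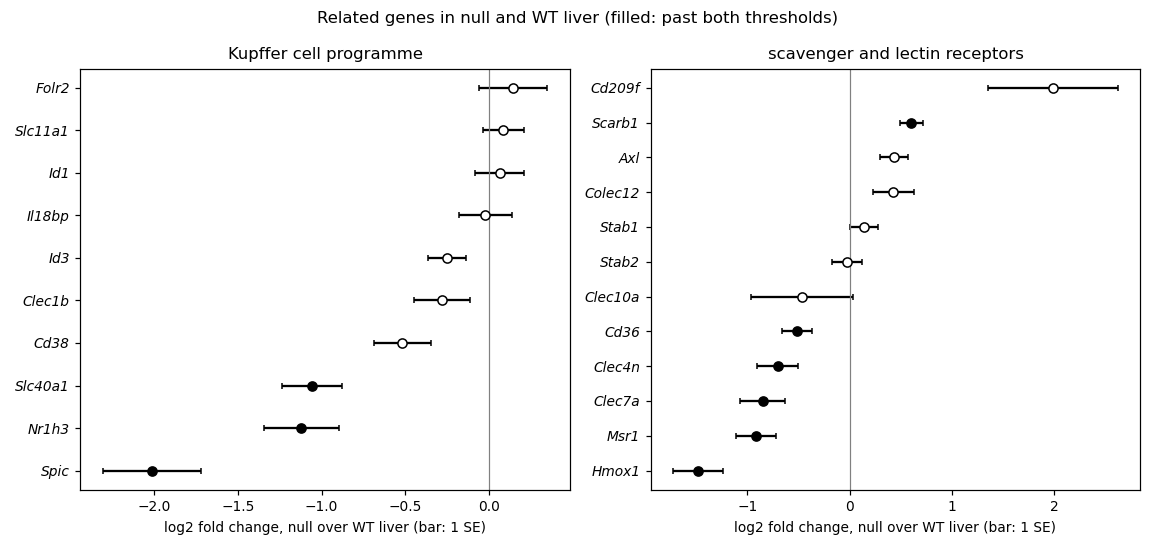
Fitted log2 fold change of null over WT liver (horizontal axis, bars 1 SE) for the tested genes of the Kupffer cell programme (left) and of the scavenger and lectin receptor list, which includes the enzyme gene *Hmox1* (right), filled where past both thresholds. *Spic*, *Nr1h3* and *Slc40a1* on the left and *Hmox1* and *Msr1* on the right lie between -0.91 and -2.02.

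Of 18 core macrophage genes, 1 was higher and 2 were lower in null liver (median 0.06), a smaller share than the 26.9% called over all genes. *Cx3cr1*, the receptor gene for fractalkine, was at 5.17, 8.63 and 7.25 CPM in WT and 1.55, 2.97 and 1.68 CPM in null liver (log2 fold change -1.76 ± 0.32, edgeR adjusted p = 0.00851), a call that held without any 1 library. Its annotated span overlaps several genes on both strands, so its reads are uncertain. *Adgre1*, which encodes the macrophage antigen F4/80, was at 56.4, 47.2 and 51.4 CPM in WT and 76.1, 89.5 and 60.2 CPM in null liver (0.54 ± 0.16, adjusted p = 0.0387), and *Ctss*, the cathepsin S gene, was lower (-0.45, adjusted p = 0.045). The *Adgre1* call held only without null liver 3 and the *Ctss* call only without null liver 2, with adjusted p-values of up to 0.119 and 0.117 otherwise. In the fit of all 12 libraries *Cx3cr1* stayed called, and *Adgre1* (adjusted p = 0.249) and *Ctss* (adjusted p = 0.54) did not. For every 100 *Csf1r* reads there were 29.6 to 33.2 *Adgre1* reads in WT liver and 40.5 to 49.1 in null liver.

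In the CSF1 receptor axis 1 of 12 tested genes was higher and 1 lower in null liver (median 0.16), and this list and the complement and alveolar lists all held a smaller share of called genes than the 26.9% over all genes. *Runx1*, a blood cell transcription factor gene, was higher (log2 fold change 0.67, edgeR adjusted p = 0.0179; 0.0558 without WT liver 1). *Maf*, a transcription factor gene of resident macrophages that endothelium also expresses, was lower (-0.67, adjusted p = 0.0373), a call lost without WT liver 1, WT liver 3, null liver 1 or null liver 2 (adjusted p up to 0.121). Of 9 genes of C1q and the complement receptors 1 was higher, *C1ra*, which hepatocytes make in quantity (0.35, adjusted p = 0.0493), and the call held only without WT liver 2 (up to 0.169 otherwise). Of 12 tested genes of the alveolar macrophage programme 1 was higher in liver, the broadly expressed *Cd9* (0.64, adjusted p = 0.0414), which held only without null liver 1 (up to 0.128 otherwise). In the fit of all 12 libraries *Maf* stayed called (adjusted p = 0.0496), and *Runx1* (adjusted p = 0.0988), *C1ra* (adjusted p = 0.073) and *Cd9* (adjusted p = 0.176) did not.

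Without null liver 1, where 23.8% of all genes were called, some of the called genes were others. The Kupffer cell programme again had 3 of 10 lower, *Spic*, *Nr1h3* and *Slc40a1*. The scavenger receptors had 2 higher and 4 lower of 12, and *Hmox1*, *Msr1*, *Cd36* and *Scarb1* were called in the same direction. The core list had *Cx3cr1* lower and *Cd14* higher (1.25, edgeR adjusted p = 0.0477), while *Adgre1* (adjusted p = 0.0604) and *Ctss* (adjusted p = 0.0964) were not called. The CSF1 axis had 2 higher, *Runx1* and *Cebpa* (0.75, adjusted p = 0.0266), and 0 lower, with *Maf* not called (adjusted p = 0.0556). The complement list had 1 higher, *C1s1* (0.56, adjusted p = 0.0298), and *C1ra* was not called (adjusted p = 0.0885), and the alveolar list had *Cd9* alone. *Cd14*, *Cebpa* and *C1s1* were chosen after their values were seen.

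Markers of other cells that could carry these genes were measured in the same liver libraries. Monocyte markers summed to 138 to 185 CPM in WT and 191 to 203 CPM in null liver. Among them *Ly6c2* was higher (log2 fold change 0.53, edgeR adjusted p = 0.0262) and the chemokine receptor gene *Ccr2* lower (-1.58, adjusted p = 0.0159). Neutrophil markers summed to 2162 to 4485 CPM in WT and 3142 to 4980 CPM in null liver, with 3 of 8 higher, *Elane* (0.67, adjusted p = 0.017), *Mpo* (0.59, adjusted p = 0.0243) and *Retnlg* (1.44, adjusted p = 0.0318). Of the sinusoidal endothelial markers *Gpr182* (-1.27, adjusted p = 0.00343) and *Fcgr2b* (-0.75, adjusted p = 0.0226) were lower, and of the general endothelial markers *Cdh5* (0.49, adjusted p = 0.00839) and *Pecam1* (0.52, adjusted p = 0.00872) were higher. Of 4 tested dendritic cell markers *Clec9a* was lower (-1.29, adjusted p = 0.0233), and of 5 tested erythroblast markers *Klf1* was lower (-0.88, adjusted p = 0.0268). The lung marker *Sftpa1* was lower in null liver (-1.87, adjusted p = 0.0473), with lung epithelial markers at up to 85.5 CPM in WT liver 2. The calls of *Gpr182*, *Cdh5* and *Pecam1* held without any 1 library, and those of the other genes of this paragraph were lost without at least 1. *Ccr2* lost its call without WT liver 3, *Fcgr2b* without WT liver 2 or 3, *Elane* without WT liver 1 or 2, *Klf1* without WT liver 1 or 3, *Ly6c2* and *Retnlg* without WT liver 1, WT liver 3 or null liver 2, *Mpo* and *Clec9a* without WT liver 1, WT liver 2 or null liver 2, and *Sftpa1* without any library but null liver 2. Their adjusted p-values without those libraries reached 0.0627 for *Ccr2* and 0.151 for *Sftpa1*. In the fit of all 12 libraries only *Gpr182* of these genes stayed called (adjusted p = 0.0107), and the others reached adjusted p-values of 0.104 for *Ccr2* to 0.708 for *Ly6c2*. No marker was called among 5 tested lymphocyte genes, of which *Cd79b* (-0.39, adjusted p = 0.179) and *Cd79a* (-0.52, adjusted p = 0.0826) were highest, 5 muscle genes, led by *Acta1* (9.30, adjusted p = 0.0561) and *Ckm* (9.31, adjusted p = 0.0578), and 8 hepatocyte genes, led by *Alb* (0.22, adjusted p = 0.365) and *Ahsg* (-0.06, adjusted p = 0.788). Without null liver 1 the lymphocyte list had 3 of 5 lower, the lung epithelial list 1 of 7 higher (*Hopx*), and the other lists of this paragraph the same counts, with *Sftpa1* no longer called.

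Null and WT lung were compared in the same way. By edgeR, 0 of 9 tested members were called, where 0.327% of all genes were called (14 higher and 37 lower, or 0 and 2 with DESeq2 size factors), and DESeq2 also called 0 members. *Vsig4*, with 4, 0 and 1 reads in WT lung and 31, 5 and 1 in null lung, had too few reads to test. At an unadjusted p under 0.05 there were 2, *Csf1r* and *Timd4*. *Csf1r* was at 59.3, 53.8 and 46.6 CPM in WT lung and 30.4, 47.5 and 36.4 CPM in null lung (log2 fold change -0.48 ± 0.19, edgeR adjusted p = 0.192). *Timd4* was at 0.251, 0.0790 and 0.177 CPM in WT and 1.05, 0.404 and 0.332 CPM in null lung, from 37, 20 and 18 reads (1.77 ± 0.65, adjusted p = 0.168). It was called only in the fit of all 12 libraries (1.73, edgeR adjusted p = 0.0399), and leaving out 1 of the 6 lung libraries at a time gave 1.05 to 2.17.

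Null lung 1 stood apart from the other null lung libraries for several members. *Marco* was at 0.795 CPM there and at 8.93 and 7.71 CPM in null lung 2 and 3, against 5.02 to 6.29 CPM in WT lung. *Cd163* was at 7.30 CPM in null lung 1 and at 2.45 and 3.12 CPM in the other null libraries, against 5.27 to 9.20 CPM in WT lung. Without null lung 1, the library with few lung epithelial and many muscle reads, *Cd163* was called lower (-1.33 ± 0.28, edgeR adjusted p = 0.00948) and *Marco* higher (0.55 ± 0.17, adjusted p = 0.0413), 2 of 9 members where 37% of all genes were called. *Csf1r* was then at -0.35 (adjusted p = 0.0978).

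The remaining members did not pass in lung with either set of libraries. *Mrc1* was at 30.6, 27.9 and 28.7 CPM in WT and 27.5, 26.8 and 21.0 CPM in null lung, which did not overlap (-0.21, adjusted p = 0.426). *C1qa* (0.11, adjusted p = 0.804), *Cd68* (-0.32, adjusted p = 0.567), *Cd5l* (0.59, adjusted p = 0.645) and *Clec4f* (1.69, adjusted p = 0.363) overlapped between the genotypes. *Clec4f* rests on 14, 29 and 10 reads in null lung and 16, 2 and 0 in WT lung. Levels of 2 members, *Mrc1* and *Timd4*, did not overlap, where 35.9% of all genes did not, and the members' median log2 fold change was 0.04, against 0.06 over all genes.

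Against *Csf1r*, the ratios of *C1qa*, *Clec4f* and *Timd4* did not overlap between WT and null lung, 3 of 9 where 39.2% of all genes did not (two-sided exact permutation p = 0.1, the smallest possible, adjusted p = 0.3). *C1qa* reads numbered 29.1 to 40.4 for every 100 *Csf1r* reads in WT lung and 40.9 to 76.0 in null lung. Against the mean of *Csf1r*, *Adgre1*, *Fcgr1* and *Mertk*, *C1qa* overlapped (two-sided exact permutation p = 0.5), while *Clec4f* and *Timd4* did not. The resident members, summed, were at 6.74 to 7.85 CPM in WT lung and 3.69 to 12.6 CPM in null lung.

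No gene of the related lists was called in lung with all 6 libraries. The CSF1 axis genes of highest level were *Cebpa* (log2 fold change 0.42, adjusted p = 0.783) and *Tyrobp* (-0.16, adjusted p = 0.870). Those of the complement list were *C1s1* (0.41, adjusted p = 0.302) and *C1qb* (0.20, adjusted p = 0.603), and those of the core list *Lyz2* (0.27, adjusted p = 0.891) and *Lgals3* (-0.77, adjusted p = 0.0648). *Id3* (0.00 to 2 decimals, adjusted p = 0.999) and *Id1* (-0.32, adjusted p = 0.645) led the Kupffer cell programme, *Cd9* (-0.12, adjusted p = 0.844) and *Fabp5* (0.08, adjusted p = 0.904) the alveolar programme, and *Cd36* (-0.16, adjusted p = 0.861) and *Axl* (0.11, adjusted p = 0.774) the scavenger receptors. *Lyz2* and *Lgals3* are also made by lung epithelium, whose markers were low in null lung 1. *Lyz2* was at 63.1 CPM there and at 2100 and 1577 CPM in null lung 2 and 3. *Lgals3* was low in every null lung library, at 81.3 to 89.3 CPM against 126 to 158 CPM in WT lung. Leaving out 1 library at a time gave -0.86 to -0.70 for *Lgals3*. It was called lower without null lung 1, in the fit of all 12 libraries (adjusted p = 0.00643) and by DESeq2 (adjusted p = 0.000143).

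Markers of the other cell types had no call in lung either with all 6 libraries. The genes of highest level were *Lyve1* (-0.86, adjusted p = 0.446) and *Gpr182* (-1.93, adjusted p = 0.0541) for sinusoidal endothelium, *Cdh5* (0.15) and *Pecam1* (-0.17) for vascular endothelium, and *F13a1* (0.21) and *Plac8* (0.75, adjusted p = 0.122) for monocytes. For dendritic cells they were *Zbtb46* (-0.25) and *H2-Ab1* (0.77), for neutrophils *S100a9* (0.50) and *S100a8* (0.36), for erythroblasts *Alas2* (0.17) and *Slc4a1* (0.60) and for lymphocytes *Cd79b* (-0.48) and *Rag1* (0.74). *Sftpc* (-0.47) and *Sftpb* (-0.35) led the lung epithelium, *Alb* (0.41) and *Ahsg* (0.31) the hepatocytes, and *Actc1* (3.27, adjusted p = 0.174) and *Acta1* (7.78, adjusted p = 0.162) the muscle list. Monocyte markers summed to 71.7 to 80.4 CPM in WT and 72.9 to 77.4 CPM in null lung, and vascular endothelial markers to 1446 to 1737 CPM in WT and 529 to 2099 CPM in null lung.

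Without null lung 1, where *Cd163* and *Marco* were called and 37% of all genes were, markers of other cells were called as well. Of 8 neutrophil markers 5 were higher in null lung, *S100a8*, *S100a9*, *Elane*, *Mpo* and *Retnlg* (list median 0.95), and of 8 muscle markers 6 were higher (list median 1.197). Sinusoidal endothelial markers had 1 higher and 2 lower of 5, and monocyte markers 1 higher and 1 lower of 5. Vascular endothelium had 1 higher and 1 lower of 5, and lung epithelium 1 higher and 1 lower of 8. Dendritic cell, erythroblast, lymphocyte and hepatocyte markers had no call. The part of these cells in the macrophage gene values was not tested.

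Against the 37% of all genes called without null lung 1, 3 core macrophage genes were higher and 3 lower of 18, 3 CSF1 axis genes higher and 4 lower of 13, 3 alveolar programme genes higher and 3 lower of 14, 2 scavenger genes higher and 2 lower of 11, 1 complement gene lower of 9 and 1 Kupffer programme gene lower of 10. Of the called genes of these lists, the following were chosen after their values were seen. *Csf2* held 144, 90 and 106 reads in WT lung and 2, 10 and 30 reads in null lung, and was called lower without null lung 1 (-2.67 ± 0.41, edgeR adjusted p = 0.00304; -3.12, adjusted p = 0.087, with all 6). *Cx3cr1* was at 10.7, 11.2 and 7.52 CPM in WT and 1.76, 2.97 and 1.44 CPM in null lung (-2.17 without null lung 1, adjusted p = 0.00309; -2.25, adjusted p = 0.0541, with all 6). *Adgre1* was at 9.66, 7.32 and 7.15 CPM in WT and 6.81, 17.7 and 12.05 CPM in null lung (0.87 without null lung 1, adjusted p = 0.0157; 0.60, adjusted p = 0.337, with all 6).

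The difference between tissues in the genotype effect was tested with all 12 libraries. By edgeR, 0 of 10 members were called, where 0.371% of all genes were called, 1 had an unadjusted p under 0.05 (*Vsig4*, 3.29 ± 1.45 on the log2 scale, adjusted p = 0.351), and DESeq2 also called 0. *Vsig4* held 31 reads in null lung 1, against 5 and 1 in null lung 2 and 3. Leaving out 1 library at a time gave 0.958 to 4.64 for *Vsig4* and 0.680 to 1.78 for *Timd4*. *Timd4* stood at 1.35 ± 0.62 (adjusted p = 0.371), *Csf1r* at -0.55 ± 0.29 (adjusted p = 0.443), *Mrc1* at 0.27 ± 0.18 (adjusted p = 0.557) and *Cd163* at -0.11 ± 0.65 (adjusted p = 0.969). Without null liver 1 and null lung 1, 0 of 10 were called where 5.18% of all genes were, and *Marco* had the lowest adjusted p (0.69 ± 0.22, adjusted p = 0.0949). The lower *Mrc1* of null liver is thus not shown to be particular to liver.

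The genes whose pattern over the 12 libraries was most like that of *Csf1r*, by the root mean square difference of centred log2 CPM among 16154 genes, were *Khk* (0.172), *Ly86* (0.173), *Gss* (0.193), *Herc6* (0.201) and *Fyb* (0.217). *Ly86*, which encodes a partner of a Toll-like receptor relative on immune cells, was at 15.6 ± 2.43 CPM in WT liver and 4.09 ± 0.689 CPM in WT lung, while *Khk* encodes the fructose kinase of liver. Those most like *Clec4f* were *F9* (0.237), *Slc27a5* (0.238), *Gjb1* (0.244), *Sds* (0.269) and *Gys2* (0.273), which are genes known from hepatocytes. *F9*, the coagulation factor IX gene, was at 122 ± 15.3 CPM in WT liver and 0.103 ± 0.0995 CPM in WT lung. These are likenesses of level between 2 tissues and 4 groups.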

How the data were processed

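Per the labels, RNA of whole newborn liver and lung was made into stranded poly-A libraries, and the submitters' processing notes name FastQC, STAR 2.5.2a, DESeq2 and build mm10. The paper gives NextSeq pairs of 75 bp. The counting program, its strand setting and the annotation are not given in the sources used here. The authors deposited raw counts, unnormalized whole numbers for each gene symbol, in a separate table for every library. Samples were grouped by the genotype, tissue and number in their labels. Replicates are separate mice of unstated litters.

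Counts were fitted with edgeR 4.0.16 in R 4.3.3 (quasi-likelihood F test, TMM factors, filterByExpr, Benjamini-Hochberg over all genes tested), and calls took the study's cut-offs, 1.2-fold or more with adjusted p under 0.05. Each genotype fit used the 6 libraries of a tissue, each tissue fit the 6 of a genotype, and the difference between tissues all 12. The standard error is the log2 fold change divided by the root of F. CPM were scaled by TMM over all 12 libraries. Single values and ratios to *Csf1r*, or to the mean of *Csf1r*, *Adgre1*, *Fcgr1* and *Mertk*, had two-sided exact permutation tests (pseudocount 0.5). Exon lengths and positions came from GENCODE M21 on GRCm38 and promoters from RefSeq. DESeq2 1.42.0 and other scalings, filters and library sets were tried, and the fits without null liver 1 and null lung 1 and the CPM of total counts were chosen after seeing the data. The scripts were tested on simulated data.

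The members and lists were chosen with earlier results of these data known. From each list the text names the 2 called genes with the highest and the 2 with the lowest log2 fold change, or, where none was called, the 2 of highest mean CPM; other named genes are said to be chosen after their values were seen. Both organs come from the same mice by the design text. For liver and lung libraries of the same genotype and number, the deviations from the group means correlated in every pair (0.184 to 0.468). Liver and lung libraries of unlike number were not compared, so these values cannot show that the numbers pair the samples. WT and null libraries share only a number (-0.043 to 0.143). No 2 replicates agreed within sampling noise (chi-square per gene of at least 14.7).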

Additional observations from a re-analysis of the deposited data

How the results depend on the processing

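The counts of called members kept their value for the 5 comparisons under DESeq2, DESeq2 size factors, upper-quartile factors, library scaling that omitted the 20 genes of highest count and the globins, both count filters (7 of 7 tested for lung versus liver in WT, and 8 of 9 in null, with at least 10 counts in every library) and the replicate block (1 for liver, 0 for lung, 10 and 9 for the tissues, 0 for their difference), with 1 exception: null versus WT lung fitted with all 12 libraries called 1. With CPM of total counts, levels of 2 members rather than 4 did not overlap between null and WT liver. WT and null libraries share only a number, so the replicate block is no pairing for genotype. For the tissue comparisons, where the numbers may pair the libraries, the block changed no member's call. Some values changed sign, and not all of them were near 0. In liver under upper-quartile factors these were *Csf1r* (-0.043), *C1qa* (-0.077) and *Cd5l* (-0.091, and -0.012 with at least 10 counts). In lung *Marco* changed sign under upper-quartile factors (-0.037). With the replicate block *Marco* (-0.45), *Cebpa* (from 0.42 to -0.11), *Lyz2* (from 0.27 to -0.39) and *Fabp5* (-0.026) did so in lung. *Id3* in lung changed sign with DESeq2 (0.014) and its size factors (0.021). In the difference between tissues they were *Cd163* under upper-quartile factors (0.0084), *Marco* with the replicate block (-0.14) and *C1qa* without null liver 1 and null lung 1 (-0.18). The cause of these changes was not tested. Over all genes, calls between null and WT lung numbered 51, and 2 with DESeq2 size factors, 26 higher and 83 lower with upper-quartile factors, and 1 higher and 4 lower without the most abundant genes. Among the other genes named in liver, *C1ra*, *Adgre1*, *Cd9*, *Ctss*, *Ly6c2*, *Clec9a* and *Sftpa1* each lost their call under at least 1 scaling, filter or the replicate block, with adjusted p-values of 0.0504 to 0.15.

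Leaving out 1 library at a time gave 0 to 2 called members in liver and 0 to 2 in lung, 3 to 5 ratios to *Csf1r* that did not overlap in liver and 3 to 6 in lung, and 2 to 5 levels that did not overlap in lung. The log2 fold changes that changed sign ranged in liver from -0.18 to 0.19 for *Csf1r*, -0.11 to 0.15 for *C1qa* and -0.080 to 0.14 for *Cd5l*. In lung they ranged from -0.031 to 0.33 for *C1qa*, -0.32 to 1.03 for *Cd5l*, -0.39 to 0.55 for *Marco*, -0.45 to 0.26 for *Tyrobp*, -0.32 to 0.83 for *Lyz2*, -0.13 to 0.15 for *Id3*, -0.55 to 0.028 for *Id1*, -0.31 to 0.17 for *Cd9*, -0.18 to 0.41 for *Fabp5*, -0.42 to 0.23 for *Cd36* and -0.077 to 0.29 for *Axl*. In the difference between tissues they ranged from -0.040 to 0.33 for *C1qa*, -0.70 to 0.32 for *Cd163*, -0.30 to 1.02 for *Cd5l* and -0.14 to 0.81 for *Marco*. Depth limits *Clec4f*, *Timd4* and *Vsig4* in lung, with 0 to 37 reads in a library.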
